A study of Mus musculus with 12 samples.

Results

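Transcripts of 10 genes of iron homeostasis and of the BMP-SMAD response were followed in 12 libraries of mouse liver RNA. The genes were chosen by name and comprise the hepcidins Hamp and Hamp2, transferrin (Trf), the transferrin receptors Tfrc and Tfr2, Hfe, ferroportin (Slc40a1), ferritin heavy chain (Fth1), and the BMP response genes Id1 and Smad7. All 10 were present among the 23420 genes counted, and all 10 passed the filter on low counts that left 13693 genes for testing. The livers came from C57BL/6 mice in 6 groups of 2 libraries, and every group carried floxed alleles of Gdown1, a protein that binds RNA polymerase II and is encoded by Polr2m. FF livers (Gdown1 flox/flox) kept the gene and KO livers lost it through Alb-Cre, a Cre driven by the albumin promoter and thus active in hepatocytes, both at 7 weeks of age. The p53KO livers (flox/flox, p53-/-) and DKO livers (flox/flox, Alb-Cre, p53-/-) were taken at 8 weeks. The p53KO TAM and DKO TAM livers were also floxed for Gdown1 and p53 null, and were taken 24 hours after tamoxifen. The DKO TAM mice carried Alb-CreERT2, a form of the albumin-driven Cre that tamoxifen activates; the label of p53KO TAM livers names no Cre, and the age of the tamoxifen-treated mice was not stated. Cre was present only with the deletion, so that effects of Cre itself and of Gdown1 loss cannot be told apart.

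Hepcidin is the hormone by which the liver sets body iron: it binds ferroportin, the cellular iron exporter, and causes its breakdown, so that less iron enters plasma. Hepatocytes raise Hamp transcription when BMP ligands from sinusoidal endothelial cells act through BMP receptors, the co-receptor hemojuvelin and SMAD proteins, with HFE and TFR2 sensing transferrin iron, and when interleukin 6 acts through STAT3. TMPRSS6, a membrane protease of hepatocytes, restrains this pathway. Id1 and Smad7 are direct BMP-SMAD targets, and the mRNAs of Tfrc and of the ferritins carry iron-responsive elements that bind iron regulatory proteins.

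The libraries held 4939408 to 8776369 counts, so that 3 counts equalled 0.342 to 0.607 CPM (the usual depth-scaled count, here with TMM factors). Polr2m, the targeted gene, stood at 96.7 to 100.3 CPM in FF and 59.4 to 64.7 in KO livers, at 89.1 to 102.7 in p53KO and 58.1 to 60.0 in DKO livers, and at 75.9 to 78.7 in p53KO TAM and 54.6 to 65.9 in DKO TAM livers. Its log2 fold change was -0.67 (adjusted p = 0.0024), -0.70 (adjusted p = 2.4e-04) and -0.36 (adjusted p = 0.063) in the 3 comparisons of deleted with control livers; that in DKO livers was 0.07 (adjusted p = 0.65) with library totals alone. Trp53 stood at 7.94 to 22.5 CPM in p53-intact livers, 2.79 to 3.97 in p53-null controls and 8.13 to 10.01 CPM in the deleted p53-null livers; which exons the reads cover is not visible in gene counts. The summed level of 8 hepatocyte markers was lower in deleted livers: 114400 to 115300 CPM in FF and 62530 to 71290 in KO, 127100 to 131100 in p53KO and 35690 to 37660 in DKO, and 116200 to 119700 in p53KO TAM and 46610 to 50970 CPM in DKO TAM livers. TMM scaling takes most genes as unchanged; with library totals alone the median over all genes moved by 0.257, 0.767 and 0.347 on the log2 scale in the 3 comparisons, and fold changes below are relative to that median. With that scaling 20% of all genes were called higher and 4.02% lower in KO, 64.4% and 7% in DKO, and 31.7% and 4.28% in DKO TAM livers, and the counts given below for library totals are to be read against these shares. Xist, the RNA of the inactive X chromosome, stood at 11 CPM in KO replicate 1 and 6.46 CPM in DKO TAM replicate 1, with 1.78 CPM or less elsewhere, while 4 Y-linked transcripts summed to 236 to 436 CPM over the 12 libraries. Whether those 2 libraries hold RNA of more than 1 animal was not tested. In whole liver, fewer cells of a type and less RNA per cell cannot be told apart.

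Hamp and Hamp2 lie close together on the minus strand of mouse chromosome 7 (mm10), Hamp at 30942369 to 30944017 and Hamp2 at 30922372 to 30924181, each with 3 exons. Their spliced transcripts (410 aligned bases) were 94.6% identical, with a longest identical run of 87 bases. Part of the reads may therefore not be assignable to 1 of the copies, so their separate levels are uncertain. The length of the reads was not considered. The 150 bases before each RefSeq start (GRCm38.p6, minus strand, chr7:30944030-30944179 for Hamp and chr7:30924182-30924331 for Hamp2) are shown because they carry the letters by which BMP-SMAD and STAT3 signals are known to reach Hamp. Capitals mark GGCGCC, the core of the BMP-responsive element, and TTCNNNGAA, the STAT palindrome, both searched on both strands; the motifs do not overlap.
Hamp: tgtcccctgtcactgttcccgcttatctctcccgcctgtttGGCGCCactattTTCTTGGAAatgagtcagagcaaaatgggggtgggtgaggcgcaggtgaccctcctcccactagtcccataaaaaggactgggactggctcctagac
Hamp2: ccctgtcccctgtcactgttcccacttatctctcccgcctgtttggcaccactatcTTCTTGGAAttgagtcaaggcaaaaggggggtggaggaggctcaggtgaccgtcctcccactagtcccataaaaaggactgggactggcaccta
Of 147 aligned bases, 135 were identical. One of the 12 substitutions, G45A (Hamp base first, counted from the first base printed for Hamp), lies within GGCGCC, and that motif was found in the Hamp window only. The STAT palindrome was found in both, at bases 54 to 62 for Hamp and 57 to 65 for Hamp2. Among all 32851 RefSeq windows from 250 bases before to 50 after a start, 11.9% held GGCGCC and 8.30% held TTCNNNGAA, so neither match is rare. Windows were found for 6 of the 10 genes; Tfrc held GGCGCC in 1 of its 2 windows, and those of Tfr2, Hfe and Fth1 held neither motif. A match describes letters only.

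Hamp had the widest range of the 10 genes, and its variation lay within groups. It stood at 87.4 and 213.5 CPM in the FF livers and at 2.37 and 353.5 CPM in the KO livers, from 14 and 1839 counts. In p53KO livers it stood at 41.0 and 187.5 CPM and in DKO livers at 134.9 and 195.2. The tamoxifen-treated controls had 65.6 and 73.3 CPM and the DKO TAM livers 11.04 and 103.5 CPM. KO replicate 1 was thus the lowest and KO replicate 2 the highest of the 12 libraries, and deleted and control groups overlapped in each comparison. By edgeR's quasi-likelihood test, the log2 fold change was 0.23 ± 1.71 (SE) for KO against FF (adjusted p = 0.95), 0.54 ± 1.72 for DKO against p53KO (adjusted p = 0.82) and -0.29 ± 1.78 for DKO TAM against p53KO TAM (adjusted p = 0.93). The direction in KO livers rested on single libraries: it was 1.22 without KO replicate 1 (adjusted p = 0.67) and -6.00 without KO replicate 2 (adjusted p = 0.23), and for DKO TAM livers 0.58 without DKO TAM replicate 1 and -2.65 without DKO TAM replicate 2.

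Hamp2, whose product is not known to act on iron as hepcidin does, showed a similar spread. Its levels were 106.0 and 89.8 CPM in FF livers against 4.74 and 412.7 CPM in the KO livers (28 and 2147 counts). They were 30.4 and 65.4 CPM in p53KO, 64.8 and 52.98 in DKO, 33.8 and 35.1 in p53KO TAM, and 7.81 and 15.8 CPM in DKO TAM livers. The last comparison was the only one of the 3 in which the groups did not overlap, with both DKO TAM livers below both of their controls. The log2 fold change of Hamp2 there was -1.56 ± 1.64 (adjusted p = 0.58 by edgeR, and 0.010 when the spread was estimated from those groups alone). For KO against FF it was 1.09 ± 1.39 (adjusted p = 0.68), but 2.08 without KO replicate 1 (adjusted p = 0.035) and -4.38 without KO replicate 2 (adjusted p = 0.012), each called and in opposite directions. For DKO against p53KO it was 0.31 ± 1.44 (adjusted p = 0.88). Hamp changed sign in at least 1 alternative of each comparison, as did Hamp2 in KO and DKO livers. In DKO TAM livers Hamp2 kept a negative sign in all 14 alternatives (-2.13 to -1.12). It was called only in the alternative that used those groups alone.

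**Figure D1:**
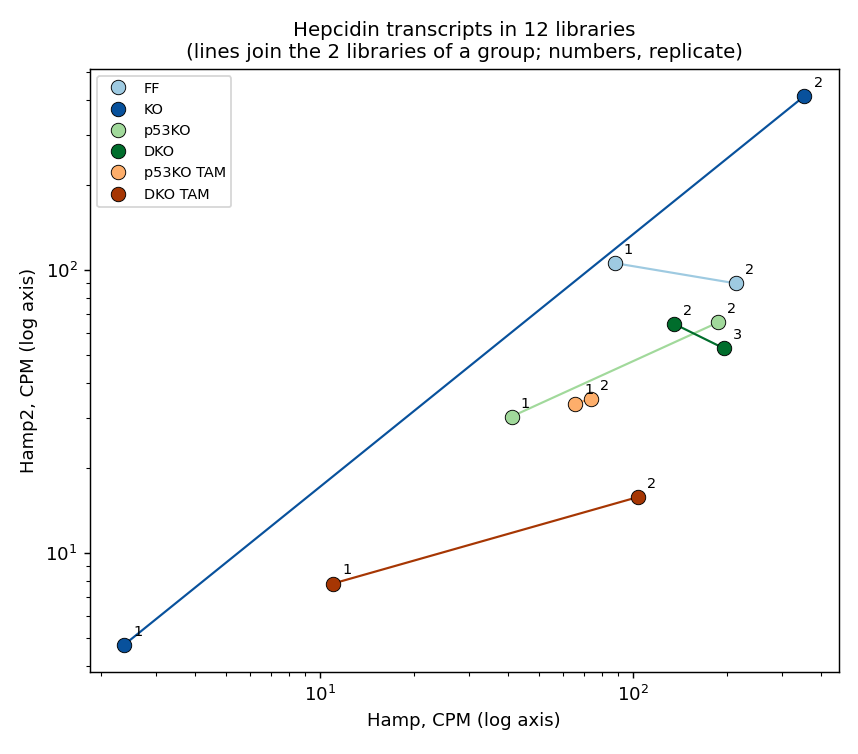
Levels of Hamp (x axis) and Hamp2 (y axis) in CPM on log axes, 1 point per library, with lines joining the 2 libraries of a group and numbers giving the replicate. KO replicate 1 sits at the lower left (2.37 and 4.74 CPM) and KO replicate 2 at the upper right (353.5 and 412.7 CPM), with all other libraries between them.

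Few genes differed as much between the KO livers. The ratio of the higher to the lower library was 149.1 for Hamp and 87.0 for Hamp2, against a median of 1.13 over 10175 genes whose mean reached 5 CPM. Hamp was 1 of 4 genes with a ratio that large, the others being Mup9, Mup13 and Ptgds. In the DKO TAM livers the ratio for Hamp was 9.38, reached by 7 genes, which included Mup1, Mup8, Mup13, Cyp3a16 and Hsd3b5. The Mup genes encode major urinary proteins and are male-biased in mouse liver; these genes were chosen after their values were seen.

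Other transcripts differed between the same livers. In KO replicates 1 and 2, the acute-phase transcript Saa1 stood at 5.59 and 78.0 CPM, haptoglobin (Hp) at 558.7 and 1030 CPM and lipocalin 2 (Lcn2) at 12.5 and 96.5 CPM. The BMP response gene Id2 stood at 94.9 and 240.3 CPM there, so all 4 were lower in the library with little hepcidin RNA. These 4 were picked from longer lists, and the other listed genes are not compared between these livers here. Hp lies outside the naming rule for lists given below. In DKO TAM replicates 1 and 2, Saa1 stood at 150.1 and 655.0 CPM, Hp at 1637 and 3387 and Lcn2 at 368.2 and 1245 CPM, in the same order, while Id2 was at 95.1 and 93.6 CPM. KO replicate 1 and DKO TAM replicate 1 are also the libraries with the most Xist. Whether these differences bear on the hepcidin levels was not tested.

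The ratio of Hamp to Hamp2 CPM ranged from 0.5 in KO replicate 1 to 6.56 in DKO TAM replicate 2. It was 0.825 and 2.38 in FF, 1.35 and 2.87 in p53KO, 2.08 and 3.68 in DKO and 1.94 and 2.09 in p53KO TAM livers. The ratio thus varied within groups as well. The value in KO replicate 1 rests on 14 counts of Hamp and 28 of Hamp2. As the separate levels of the copies are uncertain, the ratio need not be the balance of their RNAs.

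Across the 10 genes, 0 were called higher and 1 lower in KO against FF, where 6.92% of all genes tested were called higher and 7.88% lower. In DKO against p53KO, 2 were called higher and 2 lower, beside 25.7% of all genes called higher and 25.7% lower. In DKO TAM against p53KO TAM, 0 were called higher and 3 lower, beside 8.61% and 10.1% of all genes. The groups did not overlap for 4, 6 and 6 of the 10 genes. The share of all genes without overlap was not counted, so these counts have no background to be read against. The median log2 fold change of the 10 was 0.15, 0.23 and -0.43, and that of all genes tested was 0.02, 0.01 and 0.01. Trf was the only gene called in all 3 comparisons, each time lower.

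**Figure D2:**
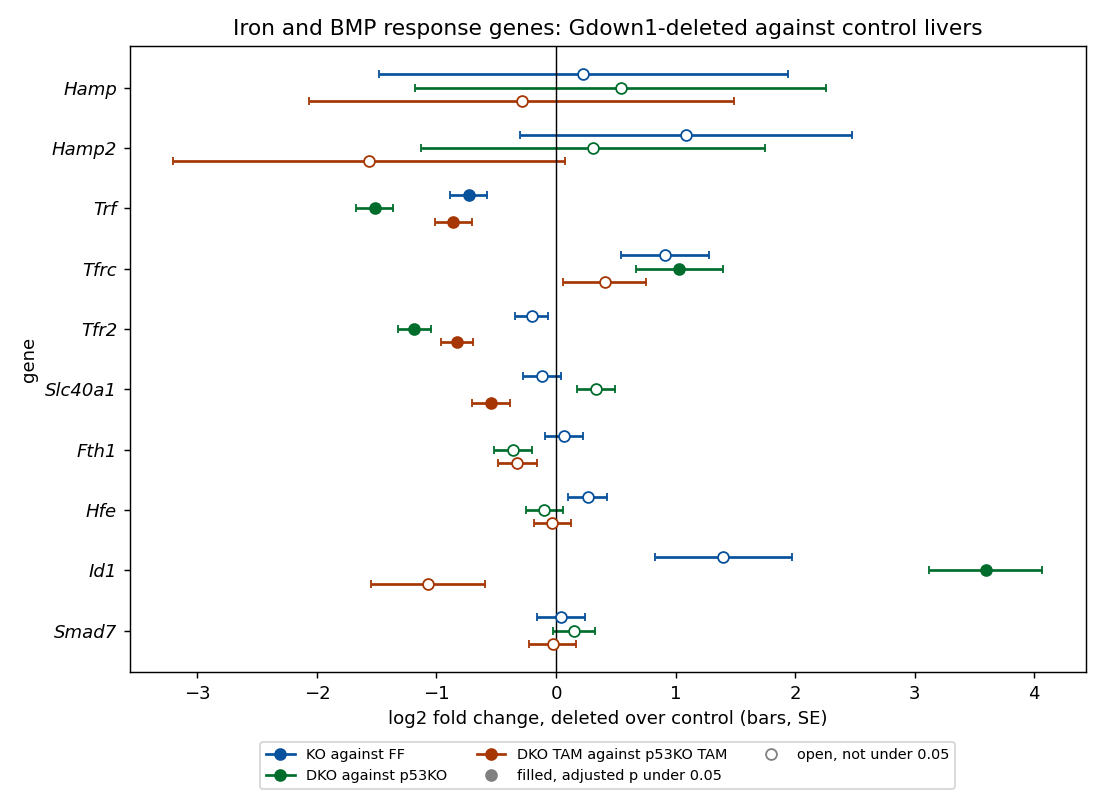
Log2 fold change (x axis) of each gene (y axis) in the 3 comparisons of deleted with control livers, with bars of 1 SE and filled points for an adjusted p under 0.05. Trf lies left of 0 in each comparison, Id1 lies at 3.59 in DKO against p53KO, and the bars of both hepcidins cross 0 throughout.

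Trf, the plasma protein that carries ferric iron and is made by hepatocytes, fell in all 3 comparisons. It stood at 10512 and 11613 CPM in FF and 6391 and 6928 CPM in KO livers. In the 8-week p53-null livers it stood at 9469 and 9738 CPM in controls and 3204 and 3501 CPM in DKO. After tamoxifen it stood at 10001 and 10523 CPM in controls and 5355 and 5963 CPM in DKO TAM livers. Every deleted liver lay below every control liver of the series. The log2 fold change was -0.73 ± 0.152 for KO (adjusted p = 0.0036), -1.52 ± 0.154 for DKO (adjusted p = 5.9e-07) and -0.86 ± 0.152 for DKO TAM livers (adjusted p = 9.8e-04). Each of these calls was kept in all 14 alternative analyses, though the size in DKO livers was -0.75 with library totals alone. The hepatocyte marker list fell alongside, with 6, 8 and 4 of its 8 genes called lower in the 3 comparisons and none higher, and its part in the Trf values was not tested. Trf lies on the minus strand of chromosome 9 (103208876 to 103230286), where the GENCODE annotation also places Gm20425 on the same strand.

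Tfrc, the receptor that takes transferrin-bound iron into most cells, was called higher in 1 comparison. Its levels were 62.6 and 65.6 CPM in FF and 155.2 and 85.9 CPM in KO livers. They were 60.8 and 81.3 CPM in p53KO and 163.7 and 125.7 CPM in DKO livers. After tamoxifen they were 262.7 and 233.0 CPM in controls and 427.7 and 229.4 CPM in DKO TAM livers. Both KO and both DKO livers lay above their controls, while the DKO TAM livers straddled theirs. The log2 fold change of Tfrc was 1.03 ± 0.364 for DKO against p53KO (adjusted p = 0.046), a call lost when any 1 of the 4 libraries was left out (adjusted p = 0.070 to 0.23) and without a filter on low counts (adjusted p = 0.097). For KO against FF it was 0.91 ± 0.370 (adjusted p = 0.15; 0.011 by DESeq2), and for DKO TAM livers 0.41 ± 0.349 (adjusted p = 0.48), or -0.11 without DKO TAM replicate 1. Dividing cells express Tfrc strongly, and the 10 dividing-cell markers summed to 49.7 to 75.9 CPM in FF, 158.1 to 158.2 in KO, 64.8 to 73.1 in p53KO, 1221 to 1231 in DKO, 64.5 to 67.6 in p53KO TAM and 130.3 to 172.4 CPM in DKO TAM livers. Of the 10, 7, 10 and 6 were called higher in the 3 comparisons, and their part in the Tfrc values was not tested.

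Tfr2, a transferrin sensor of hepatocytes and of erythroid cells, fell in both comparisons of p53-null livers. It stood at 147.7 and 182.8 CPM in p53KO against 76.8 and 68.0 CPM in DKO livers, and at 257.7 and 242.4 CPM in p53KO TAM against 153.0 and 128.7 CPM in DKO TAM livers. FF livers had 185.3 and 196.0 CPM and KO livers 172.0 and 159.0 CPM. The groups did not overlap in any of the 3 comparisons, but the KO difference was small. The log2 fold change was -1.19 ± 0.138 for DKO (adjusted p = 2.5e-06) and -0.83 ± 0.135 for DKO TAM livers (adjusted p = 5.1e-04), kept in all 14 alternatives of each comparison (-0.42 and -0.48 with library totals alone). For KO livers it was -0.20 ± 0.136 (adjusted p = 0.35) and 0.05 with library totals alone. Alas2, the erythroid enzyme of haem synthesis, was lower in DKO than in p53KO livers (39.2 and 34.1 against 217.5 and 222.9 CPM; log2 fold change -2.59, adjusted p = 8.2e-10), and the 4 adult globin genes of the marker list that the files held were at 0 in all libraries. In KO and in DKO TAM livers 0 of the 2 erythroid markers tested were called. The erythroid list summed to 81.5 to 91.8 CPM in DKO TAM and 81.9 to 93.7 CPM in p53KO TAM livers. Of its 12 genes in the files, 6 to 8 were at 0 in each of these livers. In DKO livers the sum was mostly Alas2 (39.2 of 41.7 and 34.1 of 35.4 CPM), so it is close to a reading of 1 gene. The part of erythroid cells in Tfr2 was not tested.

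Hfe, the partner of the transferrin receptors on hepatocytes, varied least. It ranged from 25.5 CPM in FF replicate 1 to 39.8 CPM in KO replicate 2, with DKO livers at 31.1 and 29.6 CPM against 32.6 and 32.4 CPM in p53KO and DKO TAM livers at 34.0 and 32.8 against 36.3 and 31.7 CPM. No call was made: the log2 fold changes were 0.27 ± 0.162 for KO, -0.10 ± 0.156 for DKO and -0.03 ± 0.156 for DKO TAM livers (adjusted p = 0.30, 0.62 and 0.91). Hfe in DKO livers changed sign with the scaling, to 0.12 with the upper quartile and 0.67 (adjusted p = 9.6e-04) with library totals alone, a scaling that also gave a call in KO livers (0.52, adjusted p = 0.024).

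Slc40a1, the iron exporter on which hepcidin acts, moved differently in the p53-null experiments. DKO TAM livers had 172.3 and 158.1 CPM, both below the 222.2 and 259.9 CPM of their controls. DKO livers had 215.4 and 190.0 CPM, both above the 151.8 and 169.9 CPM of p53KO livers. KO livers, at 169.1 and 248.8 CPM, straddled the 212.8 and 239.7 CPM of FF livers. Slc40a1 fell in DKO TAM livers (log2 fold change -0.54 ± 0.162, adjusted p = 0.027), a call lost when any 1 of the 4 libraries was left out (adjusted p = 0.054 to 0.20) and with library totals alone (-0.19, adjusted p = 0.32). In DKO livers it was 0.33 ± 0.162 (adjusted p = 0.095; 0.55 and 0.0093 with the upper quartile, 1.10 and 8.6e-06 with library totals alone), and in KO livers -0.12 ± 0.162 (adjusted p = 0.69), or 0.13 without KO replicate 1. Ferroportin is also abundant in Kupffer cells, the macrophages of the liver. Their 12 markers summed to 539.9 to 589.7 CPM in p53KO and 1166 to 1226 CPM in DKO livers (10 called higher), and to 714.7 to 787.1 CPM in p53KO TAM and 928.4 to 943.8 CPM in DKO TAM livers (2 called higher). Their part in the Slc40a1 values was not tested.

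Fth1, the ferroxidase subunit of the iron store ferritin, was not called in any of the 3 comparisons. Its levels lay between 424.5 CPM (DKO replicate 2) and 703.9 CPM (p53KO replicate 1). FF livers had 545.5 and 566.0 CPM and KO livers 554.5 and 610.9 CPM, while DKO livers had 424.5 and 531.2 CPM against 703.9 and 523.4 CPM in p53KO. DKO TAM livers, at 484.6 and 492.6 CPM, both lay below their controls at 660.5 and 561.0 CPM. The log2 fold change of Fth1 was 0.07 ± 0.160 for KO (adjusted p = 0.83), -0.36 ± 0.159 for DKO (adjusted p = 0.068) and -0.32 ± 0.160 for DKO TAM livers (adjusted p = 0.18); in DKO livers it became 0.41 (adjusted p = 0.027) with library totals alone and -0.57 (adjusted p = 0.013) without p53KO replicate 2 or -0.54 (adjusted p = 0.038) without DKO replicate 3. The GENCODE annotation holds 5 pseudogenes with names beginning in Fth, so some Fth1 reads may not be assigned uniquely.

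Ftl1, the ferritin light chain, behaved otherwise. It fell from 562.6 and 611.9 CPM in FF to 240.6 and 334.9 CPM in KO livers (log2 fold change -1.03 ± 0.158, adjusted p = 3.4e-04). In DKO livers it stood at 244.6 and 274.9 CPM against 483.3 and 587.1 CPM (-1.04 ± 0.157, adjusted p = 3.9e-05), and in DKO TAM livers at 225.0 and 223.7 CPM against 499.6 and 470.8 CPM (-1.11 ± 0.158, adjusted p = 1.4e-04). Only the DKO call was lost in any alternative, with library totals alone (-0.28, adjusted p = 0.099). Differences between the Fth1 and Ftl1 changes were not tested.

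**Figure D3:**
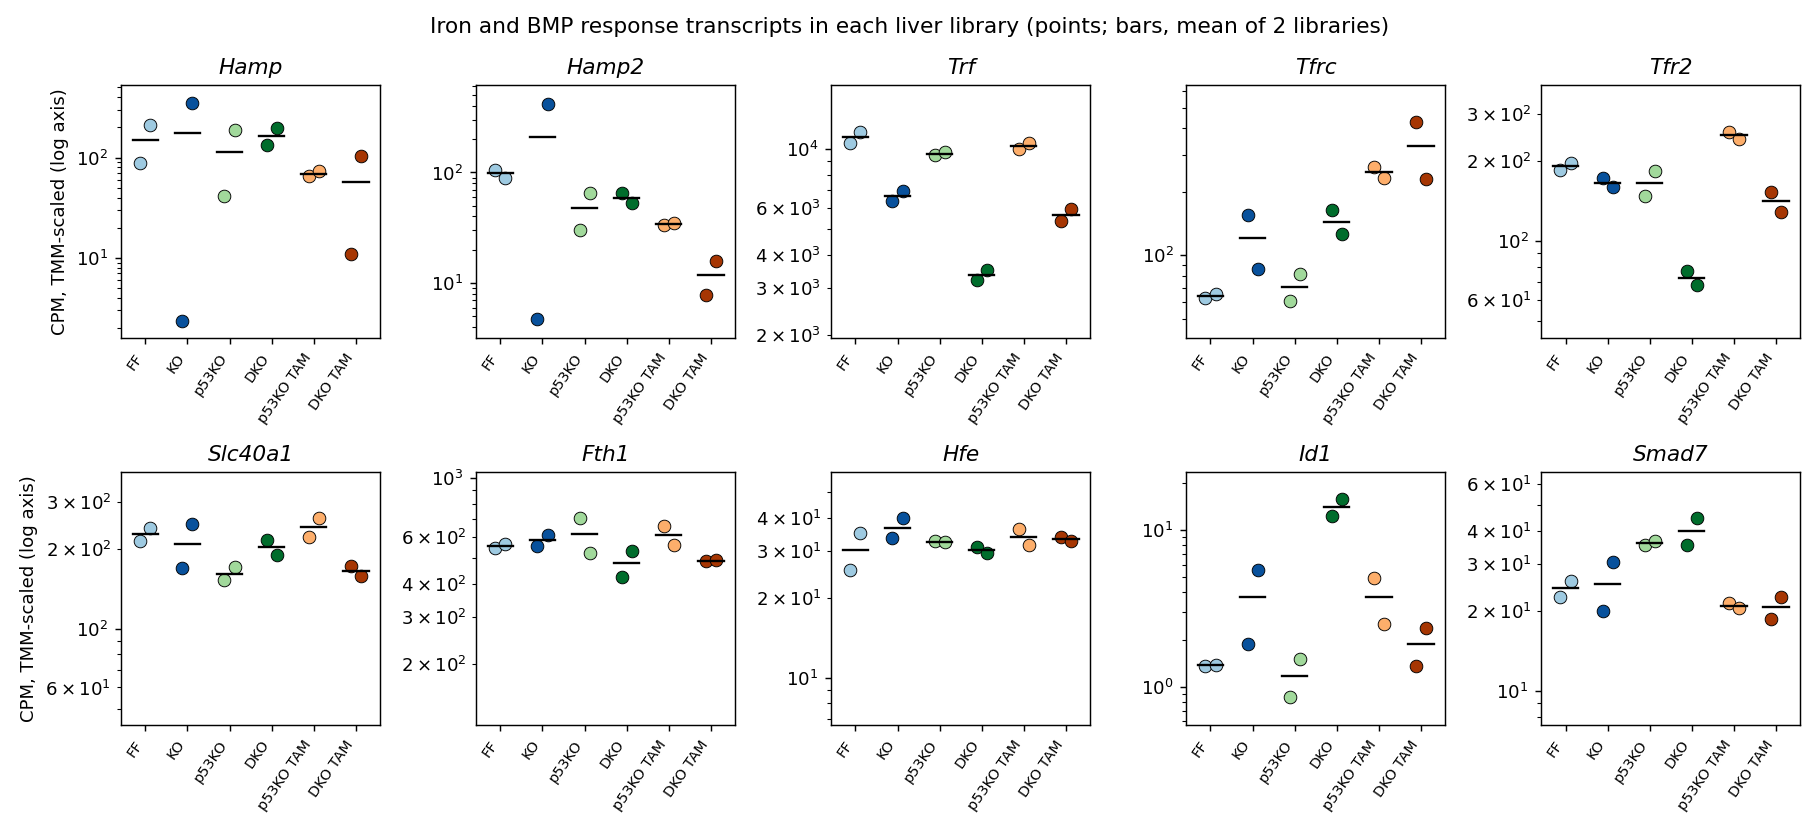
Level of each gene in CPM (y axes, log scale) in the 2 libraries of each group (points, the lower replicate number on the left) with the group mean (bars). The DKO points of Trf and Tfr2 lie below all others, those of Id1 (12.3 and 15.7 CPM) above all others, and the KO points of both hepcidins are the lowest and the highest of their panels.

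Id1, an inhibitor of basic helix-loop-helix factors and a direct SMAD target, rose in DKO livers. It was scarce elsewhere: 1.36 and 1.38 CPM in FF livers (6 and 8 counts), 0.854 and 1.502 CPM in p53KO livers (5 and 7 counts) and 1.86 and 5.57 CPM in KO livers (11 and 29 counts). DKO livers had 12.3 and 15.7 CPM, from 145 and 184 counts. After tamoxifen the controls had 4.95 and 2.51 CPM (34 and 12 counts) and the DKO TAM livers 1.35 and 2.38 CPM (13 and 19 counts). The DKO livers were above all other libraries, and the DKO TAM livers were both below their controls. The log2 fold change was 3.59 ± 0.473 for DKO against p53KO (adjusted p = 1.3e-05), called in all 14 alternatives at 3.20 to 4.36. For KO livers it was 1.40 ± 0.573 (adjusted p = 0.12), and leaving out KO replicate 1 made it 2.01 (adjusted p = 0.024), leaving out KO replicate 2 made it 0.42, and scaling by library totals made it 1.65 (adjusted p = 0.043). For DKO TAM livers it was -1.07 ± 0.475 (adjusted p = 0.13).

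Smad7, the inhibitory SMAD that BMP signalling induces as feedback, was not called in any of the 3 comparisons. It stood at 22.6 and 26.1 CPM in FF and 20.0 and 30.6 CPM in KO livers, at 35.5 and 36.7 CPM in p53KO and 35.4 and 44.7 CPM in DKO livers, and at 21.4 and 20.5 CPM in p53KO TAM and 18.8 and 22.5 CPM in DKO TAM livers. Deleted and control groups overlapped each time. The log2 fold changes were 0.04 ± 0.199, 0.15 ± 0.179 and -0.03 ± 0.196 (adjusted p = 0.92, 0.50 and 0.94); the DKO value became 0.92 (adjusted p = 2.1e-04) with library totals alone.

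Id1 also occurs outside hepatocytes, and transcripts of other cell types were higher in DKO livers. Stellate and fibroblast markers (10 genes) summed to 411.8 to 418.1 CPM in p53KO and 1402 to 1458 CPM in DKO livers, with all 10 called higher, and 5 of 5 tested cholangiocyte markers were called higher (summed list 52.6 to 56.4 against 257.9 to 287.1 CPM). Of 12 sinusoidal endothelial markers, 2 were called higher and 4 lower in DKO livers (8 and 0 with library totals alone), and 0 higher and 5 lower in DKO TAM livers. In KO livers 1 stellate, 2 Kupffer and 1 endothelial marker were called higher and none lower. The part of these cells in Id1 was not tested.

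The effect of Gdown1 loss was compared between experiments with a contrast of the log2 fold changes. For p53-null against p53-intact livers, the DKO log2 fold change minus the KO one was called for 2 of the 10 genes (22.7% of all genes tested): Trf at -0.79 ± 0.214 (adjusted p = 0.014) and Tfr2 at -0.98 ± 0.193 (adjusted p = 0.0019). Both had thus fallen more in p53-null than in p53-intact livers, but with library totals alone they were -0.27 (adjusted p = 0.30) and -0.47 (adjusted p = 0.076). The Trf call was also lost with the upper quartile (-0.59, adjusted p = 0.055) and without FF replicate 1, KO replicate 2 or DKO replicate 2 (adjusted p = 0.056 to 0.071). For Id1 the contrast was 2.20 ± 0.832 (adjusted p = 0.070), and 3.20 without KO replicate 2 (adjusted p = 0.011). Age differed as well, the p53-null livers being of 8 weeks and the others of 7.

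Between lasting and recent deletion without p53, the DKO log2 fold change minus the DKO TAM one was called for 3 of the 10 genes (27.6% of all genes tested). It was 4.67 ± 0.689 for Id1 (adjusted p = 1.9e-04) and 0.88 ± 0.229 for Slc40a1 (adjusted p = 0.0093), both kept in all 18 alternatives. For Trf it was -0.66 ± 0.214 (adjusted p = 0.030), lost in 11 of 18 alternatives. Id1 and Slc40a1 were higher than their controls in the livers with lasting deletion and lower than their controls a day after tamoxifen, with no overlap of the groups in either case. Of these differences, those of Slc40a1 in DKO livers (adjusted p = 0.095) and of Id1 in DKO TAM livers (adjusted p = 0.13) were not called. Tamoxifen, the form of Cre and the experiment differed as well, and the age of the tamoxifen-treated mice was not stated. The time since deletion cannot be told apart from these.

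Levels also differed between control groups. None of the 10 genes was called for p53KO against FF (0.862% of all genes), where age differed as well. The groups did not overlap for 5 of the 10, again a count without a share over all genes. Slc40a1 was at -0.49 ± 0.163 (adjusted p = 0.21) and Smad7 at 0.56 ± 0.194 (adjusted p = 0.23). For p53KO TAM against p53KO, 4 of 10 were called (15.8% of all genes). Tfrc (log2 fold change 1.81 ± 0.370, adjusted p = 0.015), Tfr2 (0.60 ± 0.136, adjusted p = 0.0066) and Slc40a1 (0.58 ± 0.163, adjusted p = 0.022) were higher after tamoxifen and Smad7 (-0.78 ± 0.195, adjusted p = 0.012) lower. Each of the 4 calls was lost without p53KO replicate 1 (adjusted p = 0.051 to 0.15). The Tfrc call was also lost without p53KO replicate 2, those of Tfrc, Tfr2 and Smad7 without p53KO TAM replicate 1, and those of Slc40a1 and Smad7 without p53KO TAM replicate 2 (adjusted p = 0.056 to 0.16). Tamoxifen, age and experiment cannot be told apart there.

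Per kilobase of exon, Trf was the most abundant of the genes in every group, from 1438 ± 90.1 (DKO; SD, n = 2) to 4744 ± 334 CPM per kb (FF). Fth1 followed in all control groups but FF, at 404.2 to 406.1 CPM per kb in p53KO TAM and p53KO livers; in FF livers Hamp was at 381.9 ± 226 and Fth1 at 367.8 ± 9.61 CPM per kb, a difference within their spread. Slc40a1 (47.6 to 71.3 CPM per kb over the group means) and Tfr2 (24.8 to 85.5) were of like abundance, followed by Tfrc (13.0 to 66.9), Hfe (17.6 to 21.3), Smad7 (4.65 to 9.02) and Id1 (1.29 to 15.4). Of the transferrin receptors, Tfr2 was above Tfrc in FF livers (65.2 ± 2.60 against 13.0 ± 0.438 CPM per kb), while the 2 overlapped in DKO (24.8 ± 2.12 against 29.5 ± 5.47) and DKO TAM livers (48.1 ± 5.88 against 66.9 ± 28.5 CPM per kb). In mm10, Tfrc lies on chromosome 16 (32608896 to 32632794), Tfr2 on chromosome 5 (137569851 to 137587481), Slc40a1 on chromosome 1 (45908070 to 45925594), Fth1 on chromosome 19 (9980600 to 9985111), Hfe on chromosome 13 (23703841 to 23710811) and Id1 on chromosome 2 (152736274 to 152737410), and no exon of another counted gene overlaps theirs.

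The order of group means was KO, DKO, FF, p53KO, p53KO TAM and DKO TAM for Hamp, and no neighbours in it were apart. For Trf it was FF, p53KO TAM, p53KO, KO, DKO TAM and DKO, with FF and p53KO TAM the only neighbours whose libraries overlapped. Tfrc was highest after tamoxifen (328.6 CPM in DKO TAM and 247.8 in p53KO TAM livers), then in DKO (144.7) and KO livers (120.6), and lowest in p53KO (71.0) and FF livers (64.1 CPM); each of these 3 pairs overlapped within and lay apart from the next. For Id1 only the step from DKO to the next group was apart, and for Tfr2 KO, p53KO and DKO TAM livers could not be separated as neighbours.

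Over the 12 libraries, log2 CPM of Hamp and Hamp2 had a Pearson correlation of 0.864, the second highest for Hamp among 10174 genes; Fam81a (0.940) and Sh3bgrl (0.835) were the others of the closest 3. Fam81a ranged only from 3.90 to 15.6 CPM, with its lowest and highest values in the same KO libraries. Trf and Tfr2 had a correlation of 0.896. Closest to Tfrc were Cyp4a10 (0.941), Galnt2 (0.929) and Mesdc2 (0.924), and closest to Id1 were Hmox1 (0.949), Lyz2 (0.938) and Zcchc10 (0.934). These values describe 12 points that share groups and the scaling, and carry no test.

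Around the members, the BMP pathway was followed in lists of named genes. Counts of called genes in these and the later lists, and in the marker lists above, are to be read beside the shares of all genes. These shares were 6.92% higher and 7.88% lower in KO, 25.7% and 25.7% in DKO, and 8.61% and 10.1% in DKO TAM livers. Of 15 BMP ligands and modulators tested (17 listed), 1 was called higher and 1 lower in KO, 5 and 3 in DKO and 1 and 1 in DKO TAM livers, with medians of 0.04, 0.32 and -0.01. With library totals alone these counts were 3 and 0, 9 and 1, and 3 and 0. Inhbb, a subunit of activin B, which can induce hepcidin, rose each time: from 3.65 ± 0.274 to 11.9 ± 1.87 CPM in KO (log2 fold change 1.71, adjusted p = 0.0029), from 8.40 ± 4.30 to 39.0 ± 9.35 CPM in DKO (2.18, adjusted p = 3.6e-06) and from 9.31 ± 1.06 to 24.1 ± 0.555 CPM in DKO TAM livers (1.36, adjusted p = 0.0018; SD, n = 2).

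The ligands that are best known for driving hepcidin moved less. Bmp6 was at -0.33 in KO (adjusted p = 0.54), 0.68 in DKO (adjusted p = 0.058) and -0.47 in DKO TAM livers (adjusted p = 0.27). Bmp2 was at -0.24 (adjusted p = 0.30), -0.38 (adjusted p = 0.026) and -0.31 (adjusted p = 0.15), and its DKO value turned to 0.39 (adjusted p = 0.017) with library totals alone and lost its call without p53KO replicate 1, p53KO replicate 2 or DKO replicate 3 (adjusted p = 0.053 to 0.16). In DKO livers Gdf2 (BMP9) rose from 17.2 ± 2.63 to 38.7 ± 3.93 CPM and Fstl1, a secreted follistatin-like protein, from 8.77 ± 0.876 to 76.4 ± 3.58 CPM (log2 fold changes 1.18 and 3.11, adjusted p = 2.0e-05 and 4.6e-09).

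Tmprss6, the brake on hemojuvelin, fell in all 3 comparisons. It stood at 187.3 and 189.1 CPM in FF against 136.7 and 119.4 CPM in KO, at 146.7 and 186.6 CPM in p53KO against 59.3 and 54.4 CPM in DKO, and at 125.3 and 126.5 CPM in p53KO TAM against 89.5 and 70.8 CPM in DKO TAM livers. No deleted liver reached its controls. The log2 fold changes were -0.56 ± 0.143 (adjusted p = 0.015), -1.55 ± 0.146 (adjusted p = 2.6e-07) and -0.65 ± 0.144 (adjusted p = 0.0050); with library totals alone the KO and DKO TAM calls were lost (-0.30 each, adjusted p = 0.15 and 0.12), as they were without FF replicate 1, FF replicate 2 or KO replicate 2 and without DKO TAM replicate 2. Hemojuvelin itself (listed as Hfe2) was at -0.28, -0.31 and -0.44 (adjusted p = 0.26, 0.10 and 0.054).

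Of the 19 receptors, co-receptors and SMADs tested (20 listed), 0 were called higher and 1 lower in KO, 3 and 6 in DKO and 0 and 2 in DKO TAM livers (medians -0.22, -0.20 and -0.12). With library totals alone the DKO counts became 12 higher and 1 lower, those in KO livers 2 and 0, and those in DKO TAM livers 4 and 0, beside the shares of all genes given above for that scaling. Acvrl1, an endothelial type I receptor, and Bambi, a decoy receptor, rose in DKO livers (log2 fold changes 1.604 and 1.93, adjusted p = 4.3e-05 and 9.9e-05), from 4.11 to 12.5 and from 1.86 to 7.24 CPM. Bmpr2 fell there by 0.55 (adjusted p = 7.8e-04), a call lost with library totals alone (0.22, adjusted p = 0.094).

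Among 8 other BMP-SMAD response genes tested (10 listed), 3 were called higher and none lower in DKO livers (median 0.74), and 0 were called in either direction in KO (median -0.12) and DKO TAM livers (median -0.44). With library totals alone the DKO counts were 5 and 0. Id3 rose in DKO livers from 4.10 and 2.36 CPM to 12.4 and 13.0 CPM (1.94 ± 0.319, adjusted p = 9.3e-05), levels close to the 12.7 and 11.7 CPM of FF livers. It was at -0.42 (adjusted p = 0.37) in KO and -0.37 (adjusted p = 0.42) in DKO TAM livers. Dlx5 was detected with 16 and 12 counts in the DKO livers and with 0 to 1 count in every other library. Id2 was at -0.01, -0.39 and -0.58 (adjusted p = 0.99, 0.40 and 0.32) and Smad6 at -0.45, 0.68 and -0.51 (adjusted p = 0.39, 0.075 and 0.26), in the order KO, DKO and DKO TAM.

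**Figure D4:**
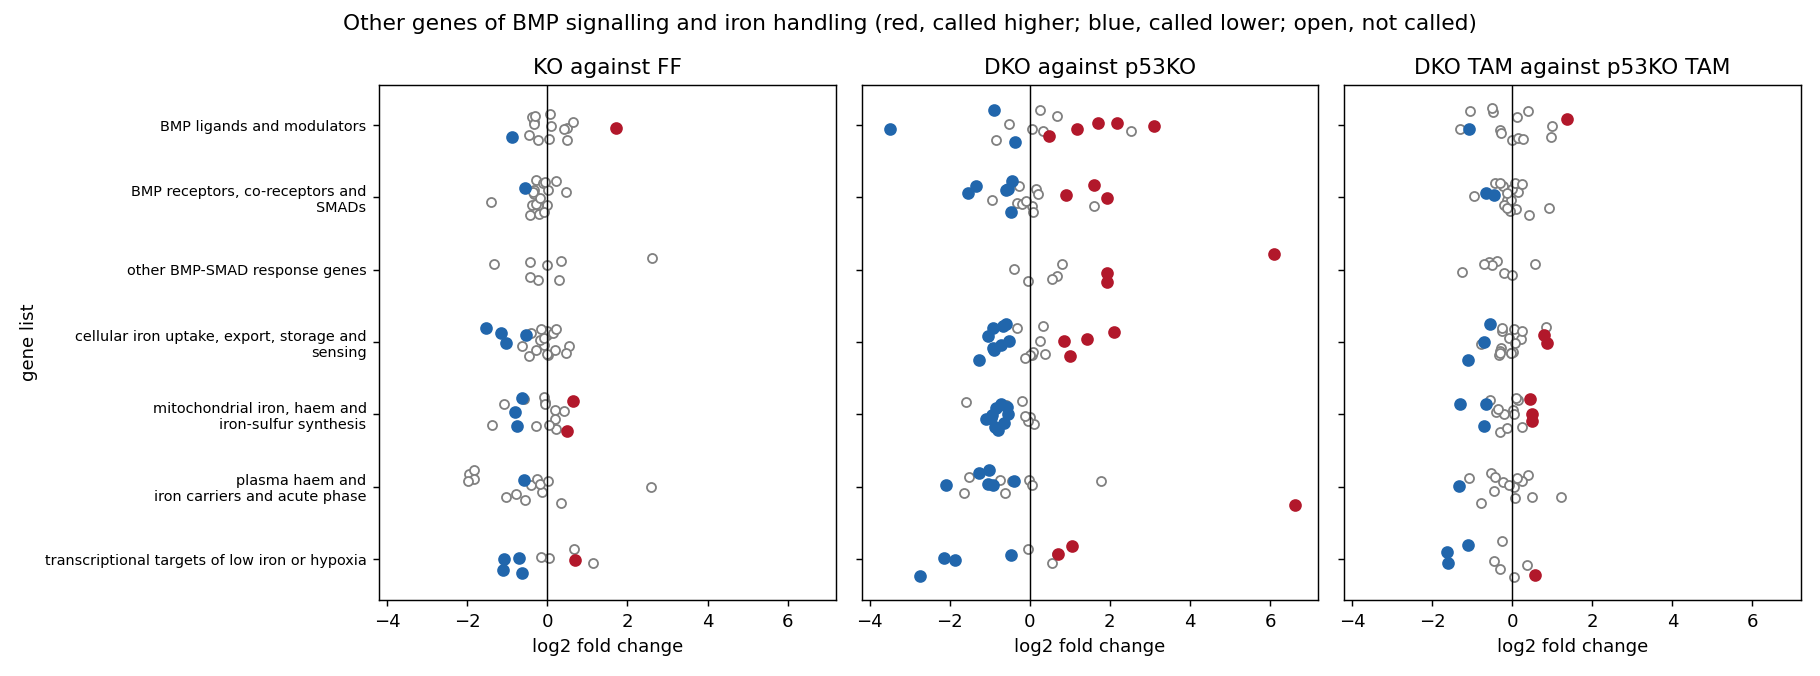
Log2 fold change (x axis) of each tested gene of 7 lists (y axis) in the 3 comparisons, with red and blue points for genes called higher and lower and open points for the rest. In DKO livers 10 of 17 mitochondrial iron and haem genes are blue on this TMM scale, against 1 with library totals alone, where 7% of all genes are called lower.

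Of 21 other genes of cellular iron uptake, export, storage and sensing tested, 0 were called higher and 4 lower in KO, 4 and 9 in DKO and 2 and 3 in DKO TAM livers (medians -0.09, -0.11 and -0.07). With library totals alone the counts were 3 and 3, 12 and 1, and 5 and 1. The 4 that fell in KO livers were Ftl1, the ferrireductase Steap2 (-1.54, adjusted p = 0.011), the biliverdin reductase Blvra (-1.15, adjusted p = 0.0074) and the iron chaperone Pcbp1 (-0.54, adjusted p = 0.0082). Steap2 was called in the other direction in DKO livers (0.86, adjusted p = 0.021), a call lost without p53KO replicate 1 (adjusted p = 0.18) or DKO replicate 2 (adjusted p = 0.13). In DKO livers haem oxygenase 1 (Hmox1), which frees iron from haem, rose from 14.3 ± 2.28 to 61.4 ± 8.84 CPM (2.09, adjusted p = 2.7e-07), and the haem exporter Flvcr1 (listed as Mfsd7b) from 8.64 ± 0.0896 to 23.1 ± 0.751 CPM (1.42, adjusted p = 1.3e-05). Mfsd7b also rose in DKO TAM livers (0.86, adjusted p = 0.0046). Ireb2, which encodes iron regulatory protein 2, fell in DKO livers (-0.93, adjusted p = 4.2e-05), but was at -0.16 (adjusted p = 0.30) with library totals alone. Leaving out 1 library ended the KO calls of Steap2 (FF replicate 1, KO replicate 1 or KO replicate 2), Blvra (FF replicate 2 or KO replicate 2) and Pcbp1 (FF replicate 1 or KO replicate 1), and the DKO TAM call of Mfsd7b (p53KO TAM replicate 1 or DKO TAM replicate 2), at adjusted p = 0.051 to 0.098.

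Of 17 genes of mitochondrial iron, haem and iron-sulfur synthesis, 2 were called higher and 3 lower in KO, 0 and 10 in DKO and 3 and 3 in DKO TAM livers (medians -0.06, -0.64 and -0.13). With library totals alone the counts were 5 and 2, 4 and 1, and 5 and 1. Ferrochelatase (Fech), which inserts iron into haem, fell in DKO livers from 172.1 ± 18.9 to 81.2 ± 7.78 CPM (-1.08, adjusted p = 5.5e-06). The mitochondrial iron importer Slc25a37 fell in all 3 comparisons (-0.81, -0.79 and -0.65; adjusted p = 0.0027, 4.8e-04 and 0.0079), but at -0.02 was not called in DKO livers with library totals alone (adjusted p = 0.91), nor at -0.30 in DKO TAM livers (adjusted p = 0.16). Iscu, the iron-sulfur scaffold, rose in KO (0.50, adjusted p = 0.017) and DKO TAM livers (0.49, adjusted p = 0.016) and fell in DKO livers (-0.95, adjusted p = 1.8e-05), a fall that was -0.18 (adjusted p = 0.21) with library totals alone. The KO call of Iscu was lost without FF replicate 1 or KO replicate 2 (adjusted p = 0.17 and 0.15), its DKO TAM call without either control or DKO TAM replicate 1 (adjusted p = 0.084 to 0.088), and that of Slc25a37 in DKO TAM livers without p53KO TAM replicate 1 or DKO TAM replicate 2 (adjusted p = 0.11 and 0.085).

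Of 15 plasma haem and iron carriers and acute-phase genes tested (16 listed), 0 were called higher and 1 lower in KO, 1 and 6 in DKO and 0 and 1 in DKO TAM livers (medians -0.56, -0.73 and -0.08). With library totals alone the counts were 0 and 0, 3 and 1, and 2 and 0. In DKO livers the iron-siderophore binder Lcn2 rose from 2.22 and 3.43 CPM to 223.3 and 326.0 CPM (6.62, adjusted p = 0.0076, and 0.060 without p53KO replicate 1). The interleukin 6 receptor Il6ra fell in KO (-0.59, adjusted p = 0.030) and DKO livers (-0.92, adjusted p = 2.0e-04), and both calls were lost with library totals alone, the former also whichever single library was left out. Haemopexin (Hpx), which carries haem in plasma, fell in DKO TAM livers (-1.32, adjusted p = 0.033), a call lost when any 1 library was left out.

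Of 9 transcriptional targets of low iron or hypoxia tested (11 listed), 1 was called higher and 4 lower in KO, 2 and 4 in DKO and 1 and 3 in DKO TAM livers (medians -0.16, -0.03 and -0.30). With library totals alone the counts were 1 and 2, 5 and 3, and 2 and 3. Vegfa, a growth factor of blood vessels, fell each time (-1.10, -1.86 and -1.64; adjusted p = 7.1e-05, 3.0e-08 and 1.3e-06), as did the kinase Pdk1 (-1.09, -2.74 and -1.10; adjusted p = 1.9e-04, 1.7e-09 and 1.7e-04). Egln3, an oxygen-sensing prolyl hydroxylase, rose each time (0.69, 1.05 and 0.58; adjusted p = 0.0089, 3.2e-05 and 0.028); its KO call was lost without FF replicate 2 (adjusted p = 0.097) and its DKO TAM call whichever single library was left out (adjusted p = 0.053 to 0.18). The members of this list thus moved in both directions.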

How the data were processed

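Total RNA of mouse liver was sequenced from 12 libraries made with a stranded total RNA kit, per the labels' protocols. The deposited values are raw counts of reads per gene. Per the submitters' processing notes, CASAVA 1.82, HISAT2 and featureCounts were used with mm10; the file headers of 4 of 12 libraries name featureCounts 1.6.4 with no strand or multiple-mapping option, and the other 8 give no program line. Overlapping, antisense and near-identical genes may therefore share or lose reads.

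The test was edgeR's quasi-likelihood F test (edgeR 4.0.16 in R 4.3.3). Low genes were removed by filterByExpr (minimum count 10), libraries were scaled by TMM, and a mean for each of the 6 groups was fitted with robust estimation to the 12 libraries together, which leaves 6 residual degrees of freedom (biological coefficient of variation 0.124). Adjustment was by Benjamini-Hochberg over 13693 genes, which held 99.9% of the counts, and a gene was called when its adjusted p was under 0.05. Every adjusted p is from this test unless another tool is named. SE is the log2 fold change over the square root of F, and SD spans both libraries of a group. The spread is pooled over groups. The titles of 8 libraries carry a further number each, all different, whose meaning is not stated; p-values measure the spread between libraries.

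The members and gene lists were chosen with earlier results of these data known. All members were named, with up to 4 called genes of smallest p per list and comparison and 8 further genes (Bmp2, Bmp6, Hjv, Tmprss6, Ftl1, Id2, Id3 and Smad6); for Hamp, Tfrc and Id1 the 3 genes of highest Pearson correlation were named. A further gene covered by the rule on lists is not reported here. Replicates of a group differed beyond counting noise (chi-square per degree of freedom 5.98 to 16.4), and each was counted as 1 sample. The titles number the DKO libraries 2 and 3 (the names used here), the descriptions 1 and 2. Libraries with the same number in the descriptions gave correlations of their deviations of 0.110, -0.0706 and -0.0130, and the numbers were not taken as pairs. The replicate block used the numbers of the descriptions too, so that DKO replicate 2 stood with p53KO replicate 1. Other settings tried were scaling by RLE, by the upper quartile and by library totals, no filter, a filter of 1 CPM in 2 libraries, DESeq2 1.42.0, limma-voom (limma 3.58.1), only the groups compared, the replicate block, each library left out and an adjusted p under 0.01. Promoter letters are from RefSeq (GRCm38.p6) and overlaps from GENCODE.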

Additional observations from a re-analysis of the deposited data

Results flagged for a closer look

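For 5 values the effect of Gdown1 loss differed between experiments by a test of the difference itself. Trf fell further in DKO than in KO livers, by a difference of -0.79 on the log2 scale, and further than in DKO TAM livers, by -0.66. Tfr2 also fell further in DKO than in KO livers (-0.98). Slc40a1 (0.88) and Id1 (4.67) differed between DKO and DKO TAM livers, each being above its controls in the former and below them in the latter. The Slc40a1 rise in DKO livers and the Id1 fall in DKO TAM livers were not called by themselves. Tamoxifen, the form of Cre and the experiment differed as well. No explanation was tested.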

How the results depend on the processing

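With 2 libraries per group, single libraries decide several values, and the scaling decides the sign of small ones; the causes were not tested. With library totals alone, 2 members were called higher in KO and 6 in DKO livers (main values 0 and 2), where 20% and 64.4% of all genes were called higher, and the log2 fold change reversed for Tfr2 (0.052) and Slc40a1 (0.13) in KO, Fth1 (0.41) and Hfe (0.67) in DKO, and Hamp (0.059), Fth1 (0.025), Hfe (0.32) and Smad7 (0.32) in DKO TAM livers. The upper quartile reversed Hfe in DKO (0.12) and Smad7 in DKO TAM livers (0.0047). It left 1 member called for DKO minus KO, where 2928 of 13693 genes were called. DESeq2 called 1 member higher in KO livers (1633 of 13162 genes called). No filter left 1 member higher in DKO livers (7068 of 19235 genes called), as did a filter of 1 CPM (7166 of 14283). An adjusted p under 0.01 also left 1 higher there (5228 of 13693). That threshold left 1 member for DKO minus KO (1545 of 13693 genes) and 1 for p53KO TAM against p53KO (1003 of 13693). These totals over all genes count both directions. limma-voom reversed Hamp (-2.36) and Hamp2 (-1.22) in KO livers.

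With the replicate block, Hamp (-1.19) and Hamp2 (-0.37) reversed in KO livers, Trf in DKO minus DKO TAM (-0.66, adjusted p = 0.054) and Slc40a1 in p53KO TAM against p53KO (0.55, adjusted p = 0.080) lost their calls, and Id1 gained one in the latter (2.01, adjusted p = 0.046); it changed no other call of a member. The numbers used for the block, those of the descriptions, are shared without a known pairing.

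Leaving out each library in turn gave 0 to 2 members called higher and 1 to 2 lower in KO, 1 higher in DKO each time, 1 to 4 for DKO minus KO and 0 to 3 for p53KO TAM against p53KO. Log2 fold changes ranged in KO livers from -6.00 to 1.22 for Hamp, -4.38 to 2.08 for Hamp2, -0.44 to 0.13 for Slc40a1, -0.019 to 0.14 for Fth1 and -0.31 to 0.32 for Smad7. In DKO livers they ranged from -0.19 to 1.999 for Hamp, -0.16 to 0.94 for Hamp2 and -0.031 to 0.30 for Smad7, and in DKO TAM livers from -2.65 to 0.58 for Hamp, -0.11 to 0.79 for Tfrc, -0.12 to 0.075 for Hfe and -0.16 to 0.10 for Smad7. Where this leaves 1 library in a group, it is assumed to vary like the other groups.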
